A study of Caenorhabditis elegans with 4 samples.

Results

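TAF-1 binding on the X chromosome of Caenorhabditis elegans embryos was described from chromatin immunoprecipitation followed by sequencing (ChIP-seq). The sites are all peaks on X in the series peak list, 641 of its 2987 peaks, and each was compared with the X peaks of the 2 ChIP replicates, 419 in replicate 1 and 466 in replicate 2. The other 2343 nuclear series peaks lie on the 5 autosomes and serve as background, and 3 mitochondrial peaks were left out. Both ChIP libraries and both input DNA libraries came from mixed-stage embryos of N2, the wild-type laboratory strain, grown at 20 °C as a population of males and hermaphrodites. No library carried a mutation or a treatment. The antibody was an affinity-purified rabbit polyclonal against TAF-1. The input libraries have no peak list here and were not analysed, and separate cultures for the replicates are not stated in the labels. Embryos of all ages and both sexes were pooled, so a site cannot be assigned to a stage, a sex or a tissue.

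TAF-1 is the scaffold subunit of TFIID, a general transcription factor. TFIID contacts core promoter DNA and nucleates the assembly of RNA polymerase II at transcription starts. The X chromosome of C. elegans is under dosage compensation: a condensin-like complex binds X in hermaphrodites and lowers its transcription, so that X output is balanced between the sexes. X is also known for carrying few genes that are active in the germline, and its gene-dense centre and repeat-rich arms are less distinct than those of the autosomes. Coordinates below are on WormBase WS220, the build of the peak lists. No peak was assigned to a gene, since no annotation on that build was used here, so whether a site lies in a promoter, an exon or an intron was not analysed.

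Peaks on X were narrow, and in the series list their widths did not set X apart. The median series peak on X was 250 bp wide (quartiles 184 and 354 bp, n = 641), against 240 bp (183 and 343 bp, n = 2343) on the autosomes. The medians of single autosomes ran from 230 to 252 bp, so X lay inside their range (two-sided exact permutation test over the 6 chromosomes, p = 0.833). X peaks covered 207.7 kb, or 1.17% of the X span, against 0.902% of the autosomal span. The span of a chromosome ended with its last peak in whichever list reached furthest, at 17.7 Mb for X. In replicate 1 the median peak was 437 bp wide on X and 428 bp on the autosomes. In replicate 2 the direction turned, with 1118.5 bp on X and 1155 bp on the autosomes, a difference of -36.5 bp in which X was the most extreme chromosome (exact permutation p = 0.167, the smallest 6 chromosomes allow). The same stretch is thus often drawn much more broadly in replicate 2.

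The only value per peak is the peak caller's score, as deposited by the authors. Its scale is not stated and differs between the lists, so scores rank peaks within a list. Series scores on X ran from 1.32 to 156.85 with a median of 8.33 (quartiles 4.72 and 19.31). Autosomal scores had a median of 8.53 (quartiles 4.91 and 17.12). The highest 25% of scores in the nuclear series list took in 176 of 641 X peaks (27.5%, 95% interval 24.0 to 31.1%) and 570 of 2343 autosomal peaks (24.3%, 22.6 to 26.1%). The difference of 3.13 percentage points had an interval from -0.63 to 7.09, and chromosome V was slightly higher than X (exact permutation p = 0.667 over chromosomes). X supplied 1 of the 10 highest nuclear scores (10.0%, 0.253 to 44.5%), 15 of the highest 50 (30.0%, 17.9 to 44.6%) and 29 of the highest 100 (29.0%, 20.4 to 38.9%). Its share was 29.2% of the highest 250 (23.6 to 35.3%), 23.8% of the highest 500 (20.1 to 27.8%) and 22.5% of the highest 1000 (19.9 to 25.2%). It held 21.5% of all nuclear peaks, a share inside each of these intervals except that of the highest 250. Every interval given is at 95% and covers the counting of peaks only, treating neighbours as independent.

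The 10 highest-scoring TAF-1 sites on X were found by both replicates and lay mostly in its left and central parts. With the span cut into 3 equal parts, 5 of the 10 highest-scoring peaks lay in the left part, 4 in the centre and 1 in the right part. A wider set was placed otherwise: of the highest 10% of X scores, 7 lay at 16 to 17 Mb and 6 at 14 to 15 Mb. Those were the most of any 1-Mb bin, and both bins lie in the right part. The 10 X peaks with the highest series scores were 321 to 1177 bp wide and scored from 131.80 to 156.85. All 10 overlapped a peak in each replicate. The overlapping peak scored 3100, the value at which replicate scores pile up, at 5 of the 10 sites in replicate 1 and at 7 in replicate 2. The highest X score, 156.85, belonged to a 512-bp peak from 11937189 to 11937700, which ranked 9 among all nuclear peaks and scored 1907.79 in replicate 1 and 3100 in replicate 2. The second, from 2002663 to 2003575, scored 153.10 and stood at 3100 in both replicates. So did the third (11643532 to 11644264, 152.62) and the fourth (2057762 to 2058431, 151.52). The second and the fourth lay within 100 kb of each other, and so did the third and the tenth of the set (11605378 to 11606554, 131.80).

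The remaining high-scoring sites lay elsewhere on X. The peak from 11093831 to 11094363 scored 147.51 and the one from 142808 to 143724 scored 144.65. The peak from 4208921 to 4209453 followed with 142.56, and replicate 2 scored it just under the ceiling, at 2988.35. The last pair was the peak from 7264716 to 7265294 with 133.39 and the one from 806501 to 806821 with 133.05. That last peak was the narrowest of the 10 at 321 bp and had the lowest replicate scores of the set, 918.81 in replicate 1 and 1707.62 in replicate 2.

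Support by both replicates was more frequent on X than on any autosome. On X, 304 of 641 series peaks (47.4%, 43.5 to 51.4%) shared at least 1 bp with a peak of each replicate. On the autosomes 943 of 2343 did (40.2%, 38.3 to 42.3%), and single autosomes ran from 36.2% on III to 43.8% on V. The share over all 2984 nuclear peaks was 41.8%. The difference between X and the pooled autosomes was 7.18 percentage points (2.85 to 11.5). With whole chromosomes as the units, an exact permutation test cannot go below p = 0.167, which is the value X gave (two-sided, 0.333 after adjustment over 8 comparisons), so the design cannot separate X from the spread between chromosomes. The difference was 6.16 points when midpoints had to lie within 100 bp, and 7.92 points when replicate peaks were set to 400 bp around their midpoints. A rule that each pair cover 50% of each other left little room for a margin, since replicate 2 peaks were a median of 3.44 times (X) and 3.55 times (autosomes) as wide as their series peaks. It left 2.81% of X peaks and 2.73% of autosomal peaks found in both, 0.0766 points apart.

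The other classes were correspondingly smaller on X. Another 97 X peaks (15.1%, 12.4 to 18.1%) overlapped replicate 1 only, against 17.3% on the autosomes and 16.9% of all nuclear peaks. Replicate 2 only accounted for 68 X peaks (10.6%, 8.33 to 13.3%), against 12.8% on the autosomes and 12.4% of all nuclear peaks. Neither replicate had a peak at 172 X sites (26.8%, 23.4 to 30.4%), against 29.6% of autosomal sites (27.7 to 31.5%) and 29.0% of all nuclear peaks. For that last class the difference of -2.74 points had an interval from -6.53 to 1.25, and chromosome IV was lower than X (exact permutation p = 0.5 over chromosomes).

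Within X, score and width followed replicate support. For peaks found in both replicates the median score was 18.87 (quartiles 9.08 and 42.1) and the median width 343 bp. Those found in replicate 1 only had 8.44 and 228 bp, those in replicate 2 only 5.02 and 196 bp, and those in neither 4.72 and 176.5 bp. The classes overlap widely at low scores, since the lowest score among peaks found in both was 1.35. At the high end they part. The highest X score outside the class found in both was 31.35 (17181223 to 17181423, replicate 1 only, where the partner scored 149.34), and 92 X peaks scored above it. The highest X score with replicate 2 support only was 18.76 (15849328 to 15849541, partner score 54.76). The highest with no support was 15.28 (14813383 to 14813587), and 194 X peaks scored above that. Across the 641 X peaks, score and width were correlated (Spearman's rho 0.598, a description across peaks that share their libraries; 0.543 on the autosomes).

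**Figure D1:**
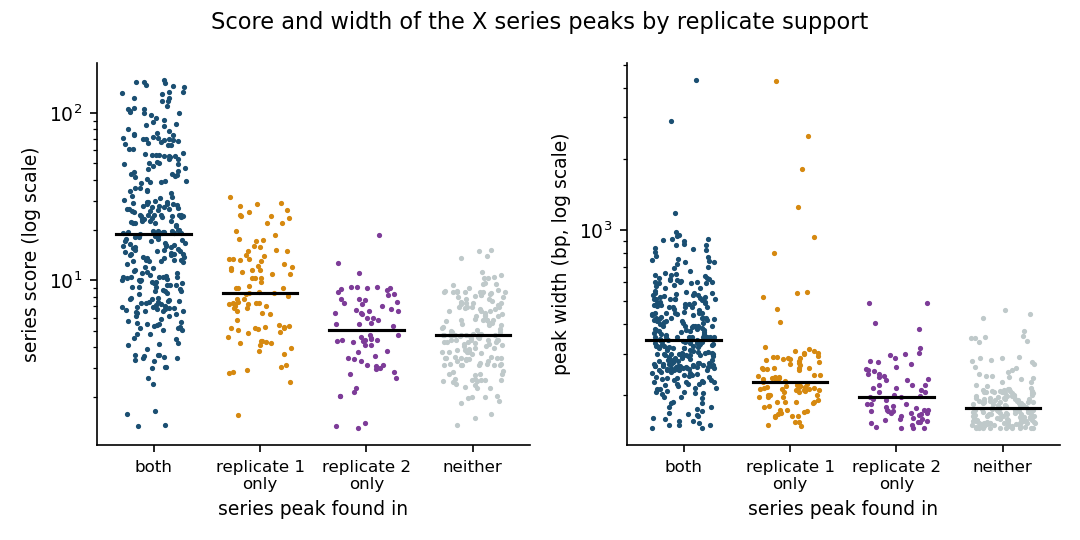
Series score (left, log scale) and peak width in bp (right, log scale) of the 641 X peaks, 1 point per peak, grouped by the replicates in which a peak was found; black lines are medians. Peaks found in both replicates have a median score of 18.87 and width of 343 bp, while those found in neither have 4.72 and 176.5 bp and do not score above 15.28.

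The margin of X over the autosomes in support by both replicates differed between parts of the list by score, which was not tested. In the highest 25% of the nuclear series list, 160 of 176 X peaks were found in both replicates (90.9%, 85.7 to 94.7%), against 83.2% (79.8 to 86.1%) of 570 autosomal peaks. Between 50% and 75% of the list the shares were 52.5% (43.9 to 61.0%) of 139 X peaks and 36.6% (32.7 to 40.5%) of 607 autosomal peaks. Between 25% and 50% they were 29.6% (22.5 to 37.5%) on X and 22.2% (18.9 to 25.8%) on the autosomes. In the lowest 25% X was at 14.9% (10.00 to 21.1%) and the autosomes at 20.1% (16.9 to 23.6%). The intervals of X and the autosomes overlapped in the lower 50% of the list and narrowly in the highest 25%, and came apart between 50% and 75%. None of the 176 X peaks in the highest 25% was without a peak in at least 1 replicate, against 3 of 570 autosomal peaks (0.526%, 0.109 to 1.53%). The count of 0 on X allows a share of up to 1.70% (3 counts), or 2.07% by the exact interval used for the other shares. X and the autosomes were thus not separated in this class. Restricting the list to the top 50% by score raised the difference to 14.9 points, with 74.0% of X peaks and 59.1% of autosomal peaks found in both. Over the whole list, the autosomal share was also weighted to the spread of X peaks over these parts. The difference was then 5.94 points (47.4% on X and 41.5% on the autosomes).

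**Figure D2:**
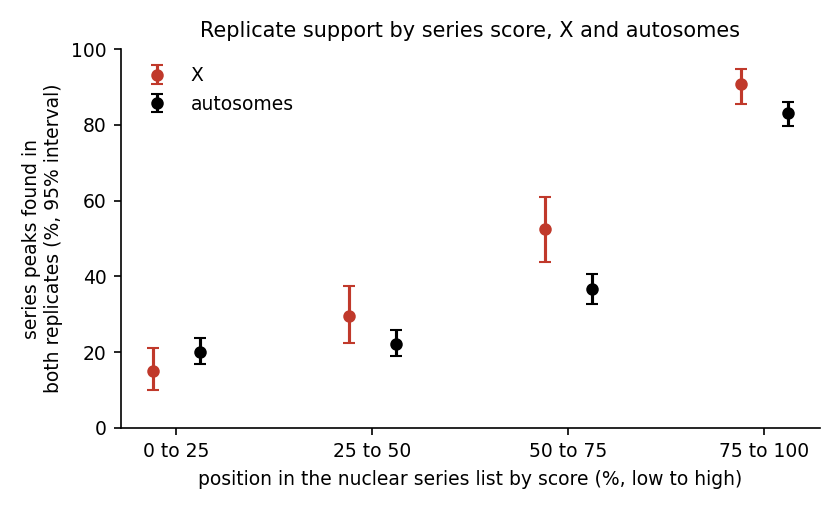
Percentage of series peaks that have a peak in each replicate (%, with 95% exact intervals) in 4 equal parts of the nuclear series list by score, low to high, for X (red, left of each pair) and the 5 autosomes together (black). X lies above the autosomes in all parts but the lowest 25%, with 52.5% against 36.6% between 50% and 75%, and below them in the lowest with 14.9% against 20.1%.

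The margin lay with the peaks that stood alone. Of the 497 X series peaks with no other series peak within 1 kb, 237 (47.7%, 43.2 to 52.2%) were found in both replicates. The same class reached 36.0% on the autosomes, and single autosomes ran from 33.2% on III to 39.7% on V, all below X (difference 11.7 points, 6.80 to 16.6). Of the 144 X peaks with a neighbour within 1 kb, 67 (46.5%, 38.2 to 55.0%) were found in both. That was lower than the 54.3% of the pooled autosomes, a difference of -7.78 points (-16.7 to 1.37), and lay between chromosome I (44.8%) and chromosome II (62.9%).

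A close neighbour went with higher replicate support on every autosome, and on X the direction rested on 1 run of peaks. The share found in both differed by -1.16 points on X between peaks with a neighbour and those without, while on the autosomes it was between 10.2 (I) and 26.5 points (II) higher with a neighbour. X was the most extreme chromosome (exact permutation p = 0.167, the smallest possible). Without a single run of 10 weak X peaks, described below, 67 of 134 X peaks with a neighbour (50.0%, 41.2 to 58.8%) were found in both. The X difference then turned to 2.31 points, still below that of every autosome (exact permutation p = 0.167). No run was left out on the autosomes, so this compares a trimmed X with whole autosomes. Peaks with a neighbour were found in neither replicate at 24.3% on X and 12.3% on the autosomes. Without that run the X share was 19.4% (13.1 to 27.1%). The split by neighbour and the omission of the run were chosen after seeing the data.

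**Figure D3:**
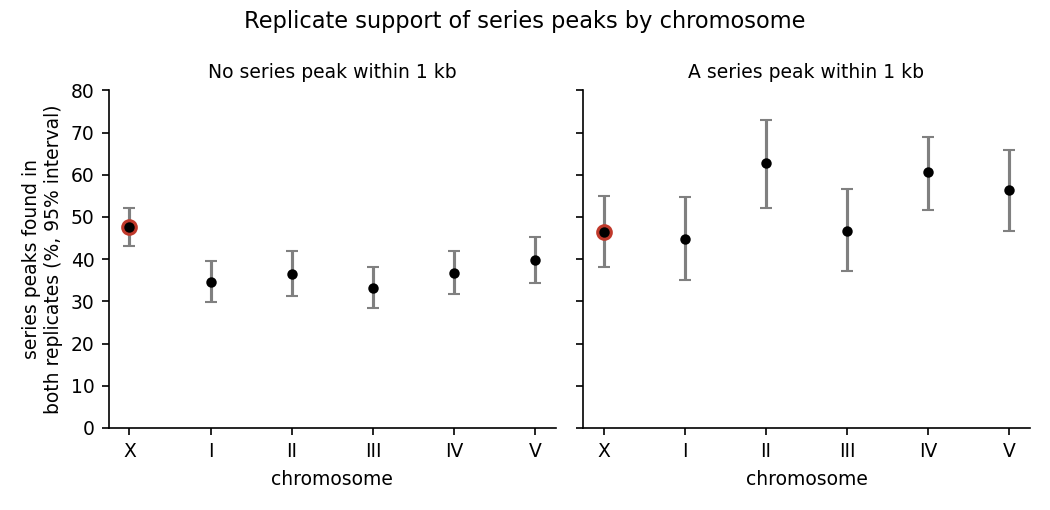
Percentage of series peaks that have a peak in each replicate (%, points with 95% exact intervals) on X (red) and on each autosome (black), for peaks with no other series peak within 1 kb (left) and with one (right). Among peaks without a neighbour X is highest at 47.7%, and among peaks with a neighbour it lies at 46.5%, within the range of the autosomes.

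The replicate lists themselves also overlapped most on X. Replicate 2 had a peak at 301 of the 419 X peaks of replicate 1 (71.8%, 67.3 to 76.1%), against 66.4% (63.9 to 68.8%) on the autosomes and 67.6% of all nuclear peaks. Replicate 1 had a peak at 280 of the 466 X peaks of replicate 2 (60.1%, 55.5 to 64.6%), against 52.4% (49.9 to 54.9%) on the autosomes and 54.1% of all nuclear peaks. The differences were 5.47 points (0.388 to 10.2) and 7.68 points (2.56 to 12.7). X was the highest chromosome both times (exact permutation p = 0.167 each), with V next at 69.0% and 58.8%, so X and V were not far apart. Scores of overlapping replicate peaks ranked alike on X (Spearman's rho 0.721 over 301 replicate 1 peaks; 0.589 over 971 on the autosomes), again as a description across peaks.

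Most replicate peaks on X had a series peak, but replicate 2 held many that did not. In replicate 1, 380 of 419 X peaks (90.7%, 87.5 to 93.3%) overlapped a series peak, against 88.0% on the autosomes and 88.6% of all nuclear peaks. In replicate 2, 323 of 466 X peaks (69.3%, 64.9 to 73.5%) did, against 62.9% on the autosomes and 64.3% of all nuclear peaks. Of the X peaks of replicate 2, 134 (28.8%, 24.7 to 33.1%) overlapped neither the series list nor replicate 1, and they had a median score of 79.2. On the autosomes that share was higher, 555 of 1624 (34.2%, 31.9 to 36.5%). The corresponding number in replicate 1 was 29 (6.92%) on X, with a median score of 64.5, against 102 of 1463 (6.97%) on the autosomes. Both medians lay below those of all X peaks, 127.8 in replicate 1 and 141.6 in replicate 2. Replicate scores begin at about 50.1 on X in both lists. Single peaks of this kind scored far higher, up to 797.17 in replicate 1 and 350.36 in replicate 2.

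Where a series peak on X and a replicate peak paired one to one, their midpoints lay closer together in replicate 1 than in replicate 2. Among 361 one-to-one pairs with replicate 1, the midpoints lay a median of 30.5 bp apart, and 90% of pairs were within 83.5 bp. Among 285 pairs with replicate 2 the median was 50 bp and 90% were within 317 bp. The replicate 2 peak was 3.44 times as wide as its series peak (median), and 284 of the 285 series peaks lay entirely inside it. For replicate 1 that factor was 1.35, and 253 of 361 series peaks (70.1%) lay inside. Pairs on the autosomes were offset by a median of 27.75 bp in replicate 1 and 56.5 bp in replicate 2. Over all series peaks, many supported sites were less well centred. With midpoints within 100 bp required, the X share found in both replicates fell from 47.4% to 26.1%. The autosomal share fell from 40.2% to 19.9%.

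Along X, TAF-1 peaks were more crowded towards the right end than in the centre. The span was cut into 3 parts of equal length. The right part held 258 series peaks (40.2%, 36.4 to 44.2%), the left part 208 (32.4%, 28.8 to 36.2%) and the centre 175 (27.3%, 23.9 to 30.9%). Replicate 1 gave 38.9% right, 33.7% left and 27.4% centre. Replicate 2 gave 36.1% right, 36.7% left and 27.3% centre, so the low centre was common to all lists but the lead of the right part over the left was not. On the autosomes 33.7% of series peaks lay in the centre (31.8 to 35.7%), and the difference of X from them was -6.42 points (-10.2 to -2.37). The X centre was below that of every autosome (30.7 to 37.8%, exact permutation p = 0.167). In replicate 2 the X and autosomal centres differed by only -1.44 points (-5.89 to 3.29), where the autosomal share was 28.7%.

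The centre of X was low for the upper 50% of scores, and for peaks with and without replicate support. It held 27.3% of the 304 X peaks found in both replicates, and 24.1% of X peaks in the top 50% of scores. Of the X peaks found in neither replicate it held 26.2%. The very highest scores were placed otherwise, with 4 of the highest 10 in the centre. The right part held 37.8% of the X peaks found in both replicates and 47.1% (39.5 to 54.8%) of the 172 found in neither. The share found in both was 51.0% on the left (44.0 to 57.9%), 47.4% in the centre (39.8 to 55.1%) and 44.6% on the right (38.4 to 50.9%), with overlapping intervals. The median gap between neighbouring peaks was 17335 bp on the left, 17566 bp in the centre and 12475 bp on the right.

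In bins of 1 Mb, the number of series peaks varied from 21 to 55 around a median of 36 over the 17 full bins. The bin from 14 to 15 Mb was the fullest with 55 series peaks, 37 replicate 1 peaks and 28 replicate 2 peaks. The bin from 16 to 17 Mb followed with 51 series peaks. The emptiest were 6 to 7 Mb with 21 and 3 to 4 Mb with 22, and the bin from 3 to 4 Mb was also the poorest in replicate 1, with 12 peaks. Replicate 2 had its highest bin elsewhere, at 2 to 3 Mb, with 45 peaks against 27 in replicate 1. Over the full bins, Spearman's rho of the series counts was 0.752 with those of replicate 1 and 0.604 with those of replicate 2, as a description over bins that share libraries. The share found in both ranged from 28.6% at 7 to 8 Mb to 65.4% at 11 to 12 Mb.

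**Figure D4:**
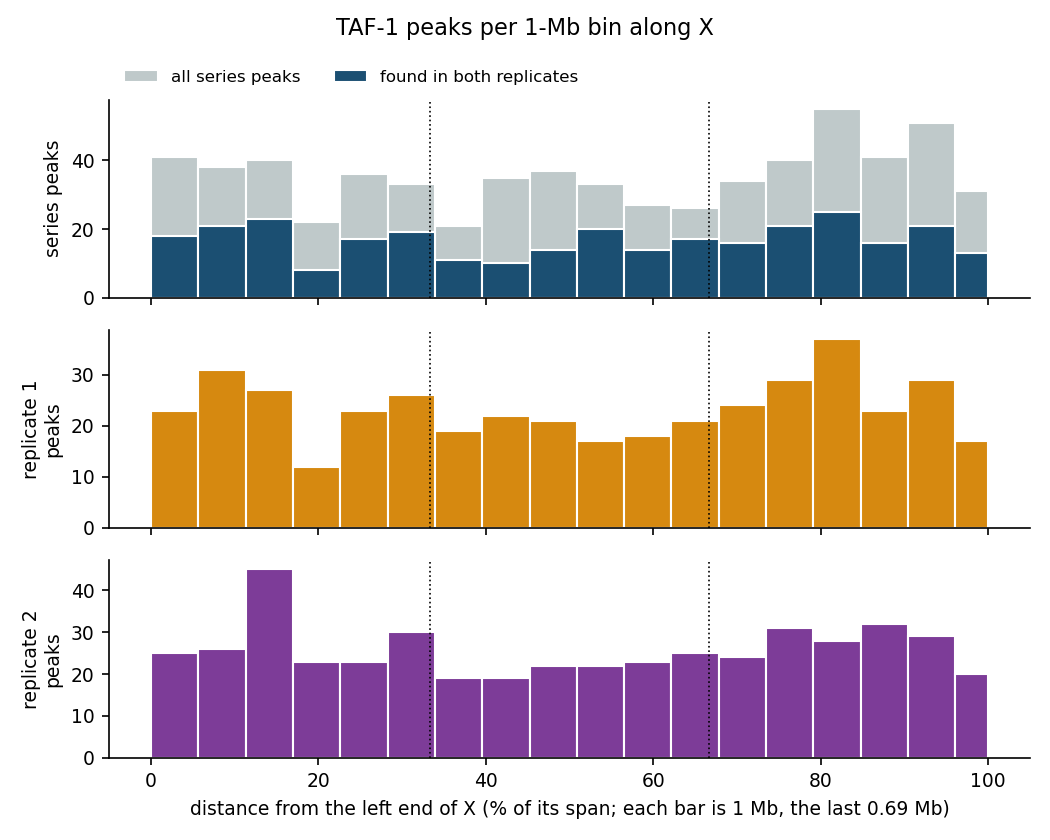
Number of TAF-1 peaks in each 1-Mb bin along X, by distance from the left end in % of the span, for the series list (top; dark bars are peaks found in both replicates), replicate 1 (middle) and replicate 2 (bottom); dotted lines part the left, the centre and the right. Series counts run from 21 to 55 per full bin, with the fullest bins on the right, and replicate 2 peaks at 45 in the third bin.

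Close neighbours were about as frequent on X as on the autosomes in the series list but less frequent on X in both replicate lists, and the share of very long gaps was lower on X, which was not tested. Neighbouring series peaks on X were separated by a median of 15492.5 bp (quartiles 3578 and 38674 bp, n = 640), against 18275.5 bp (3820 and 47657 bp, n = 2338) on the autosomes. Within 1 kb lay 88 of 640 X gaps (13.8%, 11.2 to 16.7%) and 13.9% (12.6 to 15.4%) of autosomal gaps, a difference of -0.194 points (-3.05 to 2.99, exact permutation p = 1 over chromosomes). When only peaks with support in both replicates were kept, 10.2% of X gaps and 14.9% of autosomal gaps were within 1 kb, a difference of -4.69 points (-8.50 to -0.225). In replicate 1, 8.13% of X gaps and 12.0% of autosomal gaps were within 1 kb, a difference of -3.87 points (-6.73 to -0.468, exact permutation p = 0.167 over chromosomes). In replicate 2 the shares were 5.38% on X and 8.21% on the autosomes, a difference of -2.84 points (-5.07 to -0.102, exact permutation p = 0.333). Gaps above 100 kb made up 24 of 640 on X (3.75%, 2.42 to 5.53%) and 7.96% (6.89 to 9.13%) on the autosomes. Peak density was 36.2 per Mb on X and 28.4 per Mb on the autosomes, and its part in the gap lengths was not tested. The longest stretch of X without a series peak was 182809 bp, from 6410614 to 6593422, and neither replicate had a peak centred in it. The next were 6903264 to 7068421 with 2 replicate 2 peaks (at most 100.92) and 10197456 to 10361065 with 1 replicate 2 peak (166.33). In 176 full windows of 100 kb, the median was 3 series peaks, and 7 windows had none.

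The 2 densest 100-kb windows on X held mostly peaks without replicate support, and the third was mixed. Over all X peaks 26.8% were found in neither replicate, and over all nuclear peaks 29.0%. The window from 7300001 to 7400000 held 14 series peaks, of which 10 were found in neither replicate and 2 in both. The window from 16900001 to 17000000 held 13, with 7 in neither and 4 in both. In the window from 12100001 to 12200000, with 11 series peaks, replicate 1 had 5 peaks and replicate 2 had 6, and 4 series peaks were found in both, 3 in replicate 2 only and 4 in neither. The fourth densest window, from 13500001 to 13600000, went the other way, with 10 series peaks, 6 in both and 2 in neither. The differences between the windows were not tested.

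Runs of peaks, in which each gap was at most 1 kb, took in 144 X peaks in 56 runs, or 22.5% of X peaks, against 23.3% of autosomal peaks. Pairs were the rule, with 43 of the 56 runs. The longest X run had 10 peaks between 7352399 and 7358424, in the densest window. Its peaks were 147 to 549 bp wide and scored only 2.50 to 6.55. Of these, 9 were found in neither replicate, and the tenth overlapped a replicate 1 peak that scored 56.43. The gaps between them ranged from 51 to 896 bp. The longest autosomal run had 9 peaks.

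The next longest X runs, with 6 peaks each, were of a different kind. From 9184912 to 9188456, all 6 series peaks lay under 1 wide peak in each replicate, 3850 bp in replicate 1 (score 949.44) and 4679 bp in replicate 2 (1034.33). Their series scores were only 3.46 to 10.43. From 16929410 to 16932836, a strong site (series score 85.22) stood first and was followed by 5 weaker ones on its right, and 2 of the 6 peaks were found in both replicates. More than 1 series peak fell under 15 of the 419 X peaks of replicate 1 (3.58%) and under 38 of the 466 of replicate 2 (8.15%). The autosomal shares were similar, 3.76% in replicate 1 and 9.85% in replicate 2.

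The 2 widest X peaks scored below the X median of 8.33 in the series list but high in a replicate, while the rest of the widest 5 scored above that median. The widest, 4289 bp from 109823 to 114111, had a series score of 6.95 and ranked 374 among the 641 X peaks. The replicate peaks over it were 4832 and 6087 bp wide in replicates 1 and 2, and both scored 3100. It was the only X site where a replicate peak at 3100 had no series peak above the X median: the 8 such peaks of replicate 1 had a median best series score of 138, and the 30 of replicate 2 of 82.7. The third widest, 2884 bp from 1752205 to 1755088, was not low in the series list. Its series score of 19.48 lay just above the X upper quartile of 19.31, with 2177.61 in replicate 1 and 3100 in replicate 2.

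The other wide X peaks among the widest 5 were seen by replicate 1 alone. A peak of 4267 bp (10361066 to 10365332, series score 7.3) and one of 2505 bp (10365397 to 10367901, 24.31) formed, with a pair of smaller ones, a run of 8940 bp. Replicate 1 had peaks of 5746 bp (657.93) and 2465 bp (538.71) over the first 3 peaks of this run. The fourth (10369632 to 10370005, 4.53) was found in neither replicate, and replicate 2 had no peak over the run. The fifth widest, 1810 bp from 289921 to 291730, scored 12.16 and lay with 4 weaker series peaks under a 5479-bp replicate 1 peak (285.25), again with no replicate 2 peak.

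**Figure D5:**
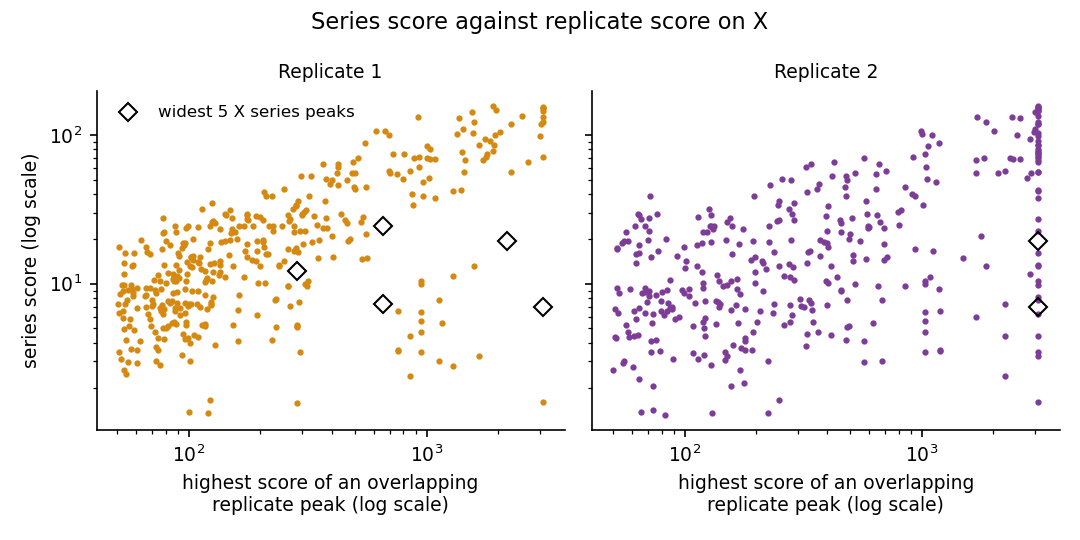
Series score (log scale) of X peaks against the highest score of an overlapping peak in replicate 1 (left) and replicate 2 (right, both log scale), 1 point per series peak with a partner; open diamonds are the 5 widest X series peaks. Scores rise together (Spearman's rho 0.608 over 401 peaks for replicate 1 and 0.477 over 372 for replicate 2), while the widest peaks lie low for their replicate score, with the widest at 6.95 against 3100 in both.

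A few strong replicate sites on X had no series peak. The highest-scoring was found by both replicates, from 15807055 to 15811285 in replicate 1 (2829.13, rank 11 on X) and from 15806725 to 15812092 in replicate 2 (2390.97). The nearest series peak was 28911 bp from the replicate 2 peak. Replicate 1 had further peaks without replicate 2 support or a series peak at 11785587 to 11787946 (797.17), 11788043 to 11789562 (482.59) and 7077420 to 7079282 (440.37). At the left end, both replicates had a peak that began at base 1, 355 bp wide in replicate 1 (331.04) and 748 bp wide in replicate 2 (898.86), while the first series peak began at 20946 (score 4.38, replicate 2 only). In replicate 2, the next strongest without a series peak were at 1440462 to 1442401 (350.36), 5474643 to 5475953 (260.10, with a replicate 1 partner of 50.98) and 8020769 to 8022403 (256.02). The last series peak on X, at 17630860 to 17631119, scored 4.78 and was found in neither replicate.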

How the data were processed

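The data are 3 deposited peak lists, 1 from each TAF-1 ChIP replicate and 1 from the series. BWA and the ce10 build are named in the submitters' processing notes, without a version. WormBase WS220 is the build of the coordinates, per the file headers. MACS is named as caller in the replicate lists and MACS v2 in the series list. Cutoffs, the role of input and any pooling of reads are not stated. Each deposited peak has 1 value, a score from the authors' caller with no stated scale. Read depth is unknown, so no interval covers it.

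X was compared with the autosomes in 8 comparisons, each by a two-sided exact permutation test over the 6 nuclear chromosomes, with Benjamini-Hochberg adjustment over the 8. Shares carry exact Clopper-Pearson intervals and differences of shares Newcombe intervals, at 95%. A peak was found in a list if it overlapped a peak there by at least 1 bp. The alternatives were other overlap rules, score limits, distances, lists and autosomal summaries. The calculations were tested on simulated data. The tools were scipy 1.17.1, statsmodels 0.14.6, numpy 2.4.6, pandas 2.3.3 and matplotlib 3.10.9 under Python 3.11.15.

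The sites, the comparisons and the rule for named peaks were chosen with earlier results of these data known. Named are the 10 X peaks with the highest series scores, the highest of each class without support in both replicates, the 5 widest, the first and last, the longest runs, the 3 densest 100-kb windows, the 3 longest gaps, and the 5 highest-scoring X peaks of each replicate without a series peak. The 6-peak runs, the fourth densest 100-kb window and the extreme 1-Mb bins were named after their values were seen.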

Additional observations from a re-analysis of the deposited data

How the results depend on the processing

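In 56 alternatives over the 8 comparisons of X with the autosomes, 48 kept the direction and 8 turned it. No setting can pass a threshold of 0.05 over 6 chromosomes. These settings can therefore show only the direction and whether X stayed the most extreme chromosome. With the list of only 1 replicate, X exceeded the pooled autosomes in the share found by 4.94 to 4.98 points. X was then not the most extreme chromosome (exact permutation p = 0.667 with replicate 2 alone and 0.333 with replicate 1 alone). The share without support then differs by the same amounts with the sign changed (-4.98 to -4.94 points) and is not counted. Among series peaks with a neighbour within 1 kb, chosen after seeing the data, X was lower for both replicates (-7.78 points) and higher for neither (12.0 points). For the share of peaks with high scores, a limit at the highest 50% in place of 25% gave X a difference of -1.29 points. The width difference was -36.5 bp in replicate 2 and -2.0 bp among peaks that both replicates had. For gaps within 1 kb the difference was 0.51 points against the median autosome, 1.12 points at 500 bp and 1.30 points from midpoint to midpoint, and the counting intervals of the 500-bp and midpoint values included 0. Gaps within 1 kb were less frequent on X in both replicate lists (-3.87 and -2.84 points). The support of X peaks with a neighbour over those without turned to 2.31 points without the longest run. The cause was not tested. The overlap of the replicate lists (4.51 to 10.2 points) and the low X centre (-12.0 to -1.44 points) kept their direction in every alternative run. No paired analysis was possible because ChIP and input share replicate numbers but no list of input peaks was analysed here. Depth is unknown, so sites missing from a list may still be bound.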
